A study of Xerophyta schlechteri with 51 samples.

Results

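Among the transcripts of drying leaves of Xerophyta schlechteri, 76 genes were chosen by 1 rule for a high level in dry senescent tissue, out of 20783 gene IDs that occur once in the deposited table. Xerophyta schlechteri is a resurrection plant, with leaves that lose nearly all their water and regain function on rewatering. Older leaves and leaf tips of such plants can senesce after drying, so a plant holds tissue that recovers and tissue that does not. RNA was sequenced from leaf blades in 51 libraries, 3 for each of 17 groups. The tissues were non-senescent (NST), pre-senescent (PST) and senescent (ST), and they were taken from leaves at full turgor, from leaves dried to 75%, 55%, 35% and <10% relative water content (RWC, the water in the leaf relative to the fully turgid leaf), and 48 h after rewatering, with no other treatment in the labels. The stage is the water content of the NST, and PST was not sampled at full turgor. Expression is in FPKM, read fragments per kilobase of a transcript, relative to a library total, as the authors deposited it. ST at <10% RWC is called dry ST, and the libraries of each group carry the replicate numbers 0, 1 and 2 of the table's columns, in which order values are given.

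Leaf senescence is an ordered dismantling of the cell. Chloroplasts are taken apart, proteins, lipids and nucleic acids are broken down, and nitrogen and other nutrients are carried out of the leaf, under the control of transcription factors and of hormones such as abscisic acid and ethylene. In desiccation-tolerant leaves drying also raises protective transcripts, such as those of late embryogenesis abundant proteins. The rule looked for transcripts far higher in dry ST than in dry NST, which shares the drying, and allowed NST a change of up to 4-fold. No gene names accompany the IDs in the deposited table, so the 76 genes are given by ID, no function is assigned to any, and the tissue labels were not checked against senescence markers.

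The genes were selected on measured values, and these values are a description with no test. The group value was the mean of 3 libraries plus 1 FPKM. It had to reach 10 in dry ST, which 8390 IDs did, and NST at <10% RWC had to lie within 4-fold of NST at full turgor, which left 6655. It also had to be at least 8 times the highest of NST at <10% RWC, PST at <10% RWC, ST at 35% RWC and ST at full turgor. The same rule with ST and NST exchanged found 0 genes. The mean in dry ST ran from 10.2 to 1789.6 FPKM with a median of 47.3 FPKM, and 20 of the 76 genes reached 100 FPKM. The ratio to the highest of the 4 comparison groups ran from 8.01 to 46.1 with a median of 10.1, and it was at least 16 in 11 genes. That highest group was PST at <10% RWC for 37 genes, ST at 35% RWC for 24, ST at full turgor for 14 and NST at <10% RWC for 1. Just inside the 8-fold limit, Xvis03_222903 stood at 27.33, 6.13 and 12.47 FPKM in dry ST with a ratio of 8.01, and Xvis03_206888 at 58.02, 4.23 and 13.41 FPKM with a ratio of 8.04. Just outside it, Xvis03_212486 stood at 192.07, 23.85 and 37.43 FPKM with a ratio of 7.94, and Xvis03_202265 at 182.81, 31.98 and 48.97 FPKM with a ratio of 7.82. The genes on both sides of the limit share 1 high library.

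That library is replicate 0 of dry ST, and it decided which genes were chosen. It was the highest of the 3 dry ST libraries in 75 of the 76 genes. The median level of the 76 genes was 107.8 FPKM in replicate 0, 11.0 in replicate 1 and 15.3 in replicate 2. The genes ran from 25.5 to 3939.51 FPKM in replicate 0, from 0.12 to 578.26 in replicate 1 and from 0 to 851.03 in replicate 2. Replicate 0 held a median of 80.8% of a gene's summed FPKM in dry ST, from 32.6% to 99.8%. Its median fold over replicate 1 was 10.0 and over replicate 2 was 6.39, where all 8390 IDs at the 10 FPKM minimum had medians of 1.05 and 1.05. Among those 8390 IDs replicate 0 was the highest library in 39.7%, replicate 1 in 31.4% and replicate 2 in 28.9%. The 76 genes made up 1.97% of the summed FPKM of replicate 0, 0.306% of replicate 1 and 0.409% of replicate 2. A choice on the mean favours genes that are high in 1 library, so the high level of the 76 genes in replicate 0 describes the choice. Over the 8390 IDs replicate 0 was not shifted by a like amount.

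**Figure D1:**
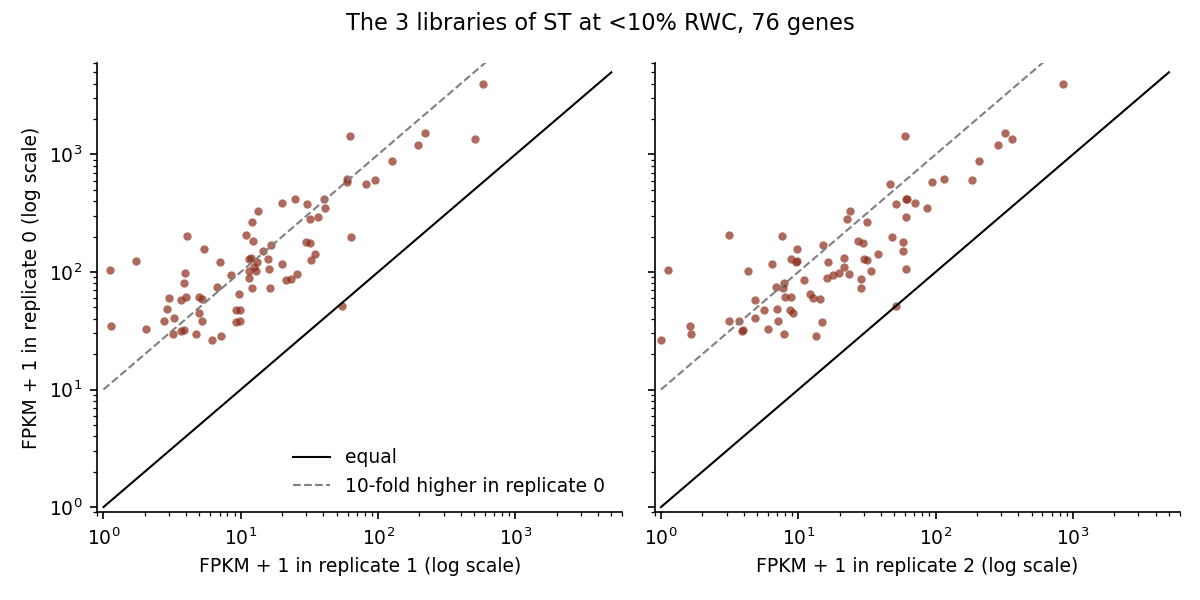
FPKM + 1 of each of the 76 genes (points) in replicate 0 of dry ST against replicate 1 (left) and replicate 2 (right), both axes on a log scale, with lines at equal values and at 10-fold. In both panels 75 of the 76 points lie above the line of equal values.

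With replicate 0 alone in place of the mean, 282 genes met the rule, with replicate 1 alone 5 and with replicate 2 alone 9. Of the 76 genes, 66 were 8-fold above the comparison groups in replicate 0 and in neither of the others, and 2 were so in all 3 libraries. Without replicate 0 the rule found 7 genes, 6 of them among the 76. Without replicate 1 it found 118 and without replicate 2 it found 109, each time with all 76 included. The other libraries, which also entered the rule, showed a smaller excess. The level of 71 genes in replicate 1 and 73 in replicate 2 exceeded the highest comparison group's value, with a median ratio of 3.04 and 4.10 against 23.8 in replicate 0. On 2 measures over all genes replicate 0 stood near its group but at its edge. It had the most genes at 1 FPKM or more, 14972 against 14557 and 14474. It had the lowest mean Pearson correlation with its group over genes, 0.910 against 0.926 and 0.927, and the latter means include replicate 0. Its summed FPKM of 1064467, against 935641 and 942554, was the highest of the 51 libraries, which ran from 489069. Absolute depth is unknown, since the table gives no counts. Whether replicate 0 differed in the cells it held, the stage of its tissue or its handling was not tested, and in a bulk library a change in the share of cells of a type and a change in RNA per cell cannot be told apart.

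The 6 genes that met the rule without replicate 0 are described next, with levels in replicates 1 and 2 that this choice fixes. Xvis03_207161 was the 1 gene of the 76 whose highest dry ST library was replicate 1, with 50.33, 53.33 and 50.58 FPKM, and its libraries nearly coincided. Xvis03_201701 stood at 142.30, 33.55 and 36.93 FPKM and Xvis03_215024 at 105.40, 14.92 and 59.68 FPKM. Xvis03_208400 stood at 618.01, 58.37 and 114.44 FPKM, where its 3 PST libraries at <10% RWC were at 2.83, 0.08 and 1.22 FPKM. Xvis03_208404 stood at 418.24, 23.84 and 60.55 FPKM and had the highest ratio, 46.1. Xvis03_213408 stood at 383.37, 18.86 and 69.40 FPKM. At the other end, Xvis03_211070 was at 103.37 FPKM in replicate 0 and at 0.12 FPKM in replicates 1 and 2, so its place in the list came from 1 library.

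The most abundant of the 76 genes was Xvis03_224540, at 3939.51, 578.26 and 851.03 FPKM in dry ST (1789.6 ± 1867, SD, n = 3). Its PST libraries of the same stage stood at 271.95, 128.76 and 135.59 FPKM and its NST libraries at 86.45, 63.42 and 16.78 FPKM, so the tissues did not overlap and fell in the order ST, PST, NST. Xvis03_204498 stood at 1342.76, 505.17 and 360.70 FPKM and Xvis03_205508 at 1514.97, 217.73 and 319.44 FPKM in dry ST. Xvis03_202669 stood at 1211.56, 195.53 and 282.01 FPKM. Replicate 0 was the highest library for all 4, by more than 2-fold over the next. Xvis03_219150 rested on replicate 0 more than these did, with 1444.25, 61.36 and 58.69 FPKM. Xvis03_220452 stood at 872.19, 125.40 and 206.10 FPKM and Xvis03_204007 at 609.51, 93.39 and 184.08 FPKM. Xvis03_201585, among the 5 highest ratios, stood at 563.61, 81.11 and 45.21 FPKM.

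**Figure D2:**
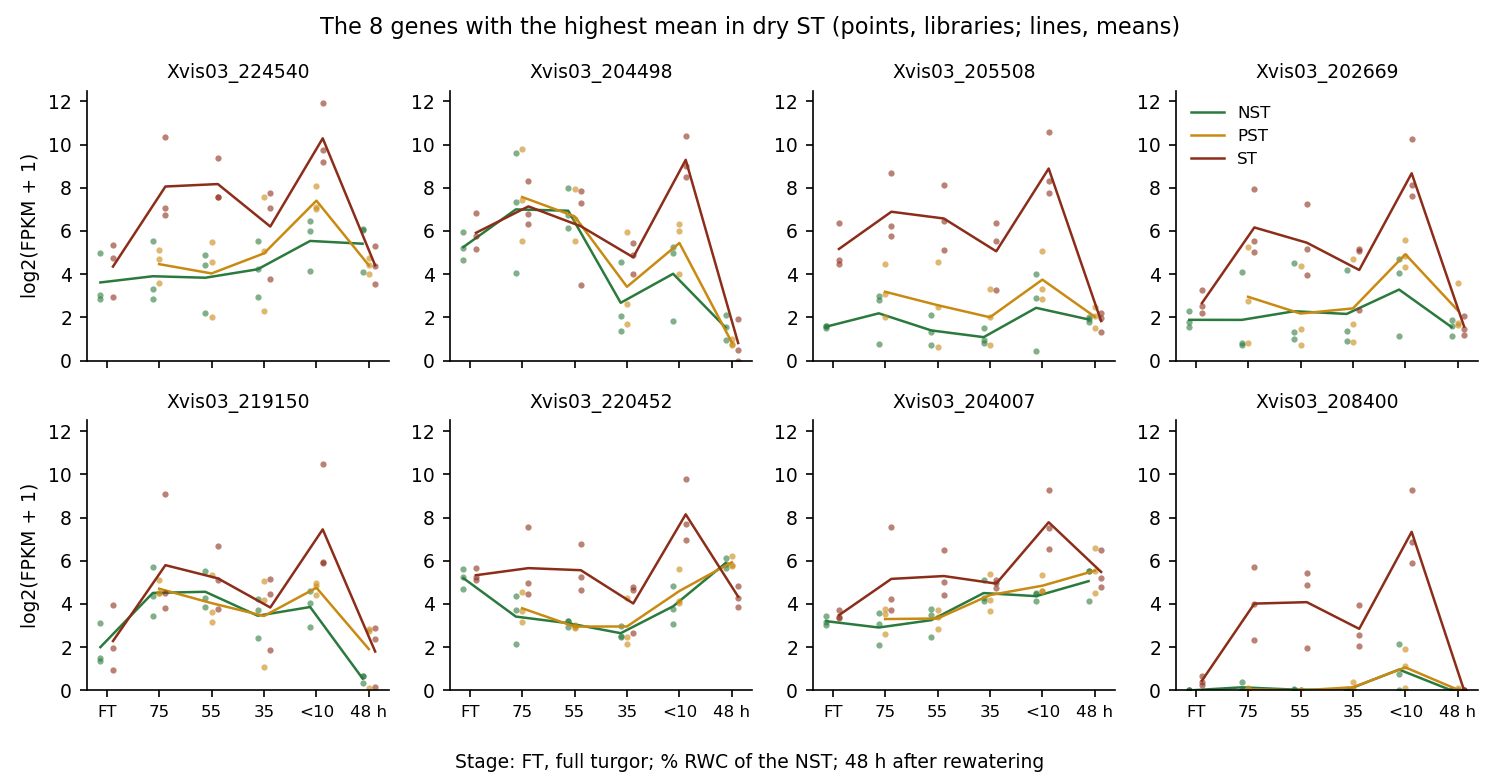
log2(FPKM + 1) of the 8 genes with the highest mean in dry ST at each stage, with points for libraries and lines through group means, in NST, PST and ST. Every ST line peaks at <10% RWC, where 1 ST point stands above the other 2.

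In several of the other groups, though not in all, the highest library for these genes was most often replicate 0. The share over all genes was not computed for these groups. Replicate 0 was the highest in 61 genes in dry NST, in 65 in PST at <10% RWC, in 63 in PST at 35% RWC, in 70, 59 and 61 in ST, PST and NST at 75% RWC, in 54 in ST at full turgor, in 52 in rehydrated ST and in 42 in NST at 35% RWC. It was the highest in 38 genes in NST at 55% RWC, in 37 in rehydrated NST, in 28 in NST at full turgor, in 25 in rehydrated PST, in 23 in PST at 55% RWC, in 22 in ST at 35% RWC and in 1 in ST at 55% RWC. Ties went to replicate 0 in these counts, also for genes listed at 0 in all 3 libraries. Such genes numbered 19 in rehydrated ST, 18 in rehydrated NST, 10 in NST at 55% RWC and 9 in NST at full turgor. In those NST groups replicate 1 was the highest in 25, 31 and 26 genes, more than replicate 0 without the genes at 0. Every other group had at most 8 genes at 0 in all 3 libraries. The median over the 76 genes was 1.98, 0.71 and 0.065 FPKM in dry NST, and 4.10, 0.935 and 0.735 FPKM in PST at <10% RWC. The mean was higher in dry PST than in dry NST for 70 genes, a description since both groups entered the rule. Replicate 1 was the highest in 63 genes in ST at 55% RWC, in 48 in ST at 35% RWC and in 41 in PST at 55% RWC. Replicate 2 was the highest in 39 in rehydrated PST. Whether libraries with the same number shared an origin or handling was not tested. Over all tested genes, deviations from the group mean of libraries with the same number correlated at 0.54, 0.389 and 0.482 between dry ST and dry NST and at 0.564, 0.492 and 0.472 between dry ST and dry PST, for the numbers 0, 1 and 2.

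Part of the 76 genes also had a level in ST at 75% or 55% RWC. Others stood near 0 outside dry ST, such as Xvis03_211070, whose next highest group mean was 0.79 FPKM, in ST at 55% RWC. Dry ST had the highest mean of the 17 groups for all 76, as the rule favours, but the next highest group was ST at 75% RWC for 39 genes and ST at 55% RWC for 22. Mean levels of 10 FPKM or more were reached by 27 genes in ST at 75% RWC and by 25 in ST at 55% RWC, against 6 in ST at full turgor and 10 at 35% RWC, both groups that the rule held low. In ST the median over the genes was 1.67, 0.735 and 0.74 FPKM at full turgor, 11.0, 2.94 and 3.35 FPKM at 75% RWC, 1.45, 8.54 and 4.10 FPKM at 55% RWC, and 1.84, 2.44 and 0.665 FPKM at 35% RWC. The mean at 75% RWC exceeded that at full turgor in 72 genes and that at 35% RWC in 75. In PST the median was 1.35, 0.31 and 0.305 FPKM at 75% RWC, 0.32, 0.60 and 0.155 FPKM at 55% RWC and 0.85, 0.34 and 0.055 FPKM at 35% RWC. In ST most medians were thus raised at 75% and 55% RWC, lower at 35% RWC and highest at <10% RWC. The 2 low points and the high one were fixed in part by the rule. The stages overlapped, with replicate 0 at 55% RWC below replicate 0 at full turgor. Replicate 1 of dry ST, at 11.0 FPKM, stood level with replicate 0 at 75% RWC. Neither 75% nor 55% RWC was tested against full turgor or 35% RWC in ST. For the other genes the next highest group was rehydrated NST in 5, PST at 75% RWC in 3, PST at <10% RWC in 3, rehydrated PST in 2, and NST at full turgor and at 75% RWC in 1 each.

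**Figure D3:**
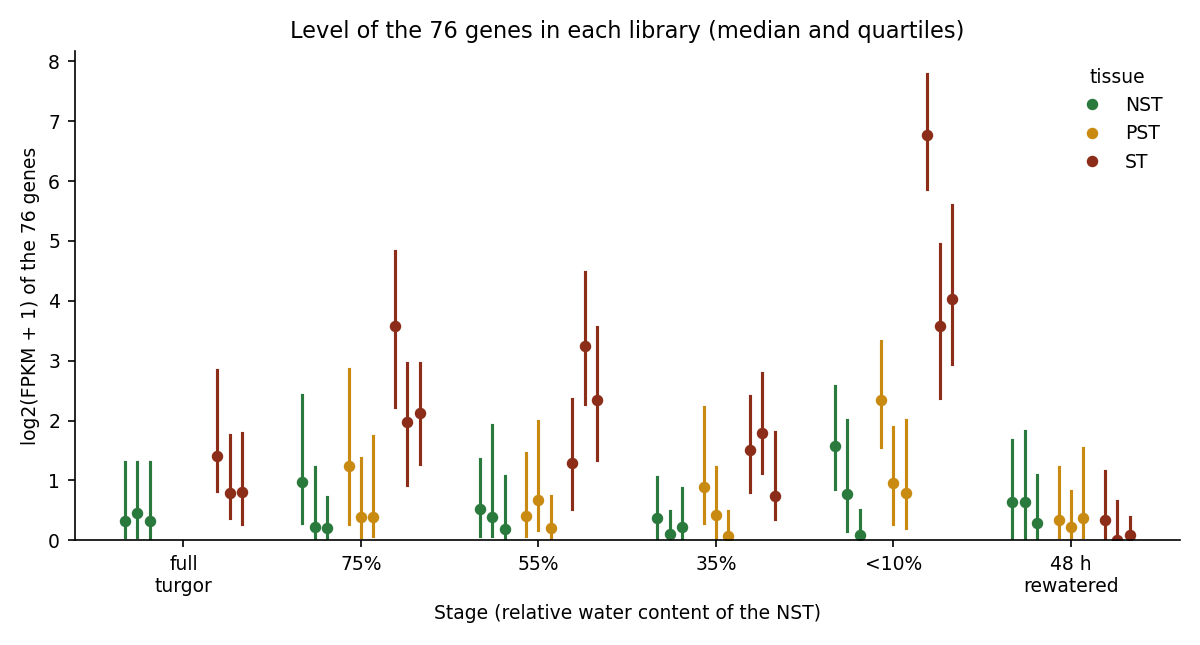
Median (point) and quartiles (bar) of log2(FPKM + 1) over the 76 genes in each of the 51 libraries, by stage and tissue, with replicates 0, 1 and 2 from left to right. Dry ST is the highest group, its replicate 0 stands above the other libraries, and ST at 75% and 55% RWC lies above the NST and PST libraries of those stages.

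**Figure D4:**
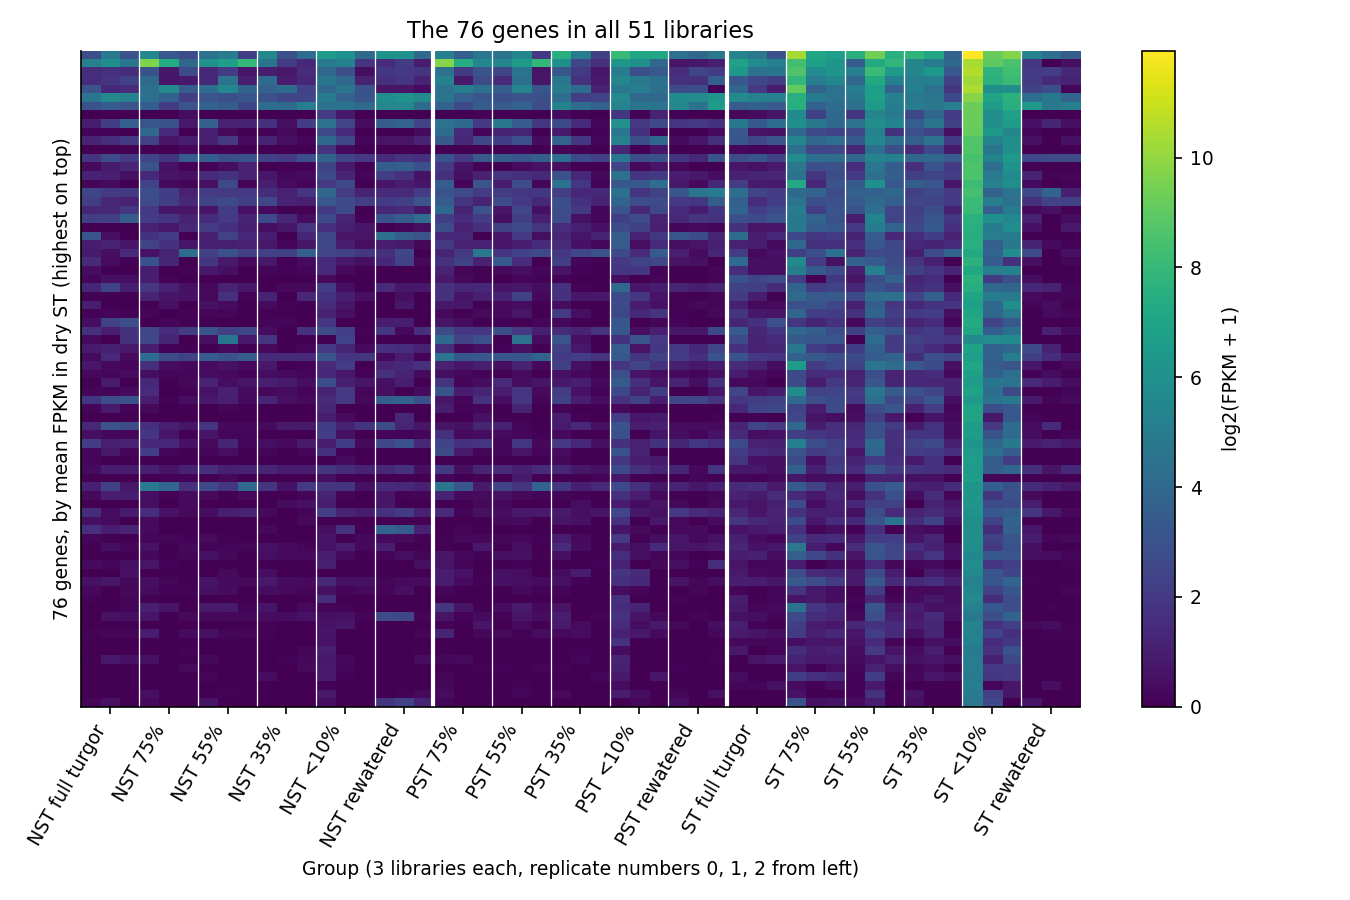
log2(FPKM + 1) of the 76 genes (rows, ordered by mean FPKM in dry ST) in the 51 libraries (columns, grouped by tissue and stage). The brightest column is replicate 0 of dry ST, and the ST columns at 75% and 55% RWC are mostly brighter than the NST and PST columns of those stages.

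Tests were made only between groups that the rule did not use, by limma on log2(FPKM + 1) of 18717 entries, with Benjamini-Hochberg adjusted p under 0.05 as a call. Of the 76 genes 75 entered the tests, and Xvis03_215626 did not reach 1 FPKM in 3 libraries. The filter saw the dry ST libraries too, and 70 of the 76 genes pass it without them. Separate plants are not stated in the labels, and p-values therefore reflect the spread between libraries alone, which may be technical.

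In ST at 75% RWC 19 of the 75 genes were higher than in NST at 75% RWC and 0 were lower, where 1.18% of all tested entries were higher and 0.871% lower. The median difference over the 75 genes was 1.59 on the log2 scale, with a range from -1.13 to 4.70, against -0.02 over all entries, and 74 of the 75 differences were positive. All 3 ST libraries lay above all 3 NST libraries in 51 genes, as they did in 10.6% of all entries. Xvis03_222916, the gene with the smallest p, stood at 8.95, 6.04 and 3.42 FPKM in ST and at 0.40, 0.16 and 0.00 FPKM in NST. These groups did not overlap, and the log2 difference was 2.52 ± 0.42 (SE; limma, adjusted p = 0.00139). Xvis03_208400 stood at 51.77, 4.04 and 14.99 FPKM in ST and at 0.02, 0.00 and 0.32 FPKM in NST, a log2 difference of 3.88 ± 0.67 (SE; limma, adjusted p = 0.00223). Xvis03_205508 stood at 404.16, 53.12 and 74.92 FPKM in ST and at 6.99, 0.72 and 5.88 FPKM in NST, a log2 difference of 4.70 ± 0.95 (SE; limma, adjusted p = 0.00809). Xvis03_224540 stood at 1302.82, 133.68 and 106.47 FPKM in ST and at 46.00, 8.87 and 6.23 FPKM in NST, a log2 difference of 4.15 (limma, adjusted p = 0.043). In all 4 genes the lowest ST library was above the highest NST library.

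The count at 75% RWC rested on single libraries. It was 1 without replicate 0 of ST, where 0.0588% of all entries were called. There Xvis03_222916 remained, and the adjusted p of Xvis03_208400, Xvis03_205508 and Xvis03_224540 was 0.098, 0.167 and 0.41 by limma. The count was 29 without replicate 1 of ST, with 3.81% of all entries called. It was 9 without replicate 0 or without replicate 1 of NST, with 0.224% and 0.545% of all entries called. Replicate 0 of ST at 75% RWC was the highest library in 70 of the 76 genes, and over all tested genes its deviation from the group mean correlated at 0.28 with that of replicate 0 of dry ST, where the correlation was -0.02 for replicate 1 and 0.534 for replicate 2. Libraries of 1 number deviated together in ST and NST at this stage, with correlations of at least 0.507. With the number as a block 49 genes were higher, where 12.9% of all entries were. With the compared groups alone in the fit the count was 0, and 4 of all entries were called.

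In ST at 55% RWC 12 of the 75 genes were higher than in NST at 55% RWC and 0 were lower, where 0.657% of all entries were higher and 0.353% lower. The median difference was 1.58 on the log2 scale, from -0.72 to 5.18, against 0.00 over all entries. The libraries did not overlap in 53 genes, with ST above, as in 8.82% of all entries. Xvis03_208400 had the smallest p, with 2.88, 42.26 and 28.11 FPKM in ST and 0.04, 0.02 and 0.02 FPKM in NST, a log2 difference of 4.05 ± 0.67 (SE; limma, adjusted p = 0.00184). Xvis03_205508 stood at 33.78, 282.26 and 87.17 FPKM in ST and at 1.54, 3.35 and 0.65 FPKM in NST, a log2 difference of 5.18 ± 0.95 (SE; limma, adjusted p = 0.00501). Xvis03_206888 stood at 1.49, 7.86 and 21.02 FPKM in ST and was listed at 0 in all 3 NST libraries (limma, adjusted p = 0.00784). Unlike at 75% RWC, replicate 0 was the lowest ST library in these 3 genes. Without replicate 1 of ST the count was 0, with 0.0321% of all entries called. Limma's adjusted p was then 0.0624 for Xvis03_208400, 0.0917 for Xvis03_205508 and 0.0729 for Xvis03_206888. The count was 4, 5 and 1 without replicates 0, 1 and 2 of NST, with 0.363%, 0.417% and 0.0481% of all entries called. It was 49 with the replicate number as a block, where 9.64% of all entries were higher. With the compared groups alone in the fit it was 0, and 0 of all entries were called. The same-number correlations of ST and NST at this stage were at least 0.491.

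Of the 21 genes higher in ST than in NST at either stage 10 were higher at both. The comparisons share no library, but both took a gene's spread from the same fit of 51 libraries, which held dry ST. Their calls are therefore not independent. The share of all entries higher at both stages was not computed. With the compared groups alone in the fit the count was 0 at 75% and at 55% RWC. Between ST at 55% and at 75% RWC limma called 0 of the 75 genes, 3 had an unadjusted p under 0.05, and the median difference was -0.10, where 0% of all entries were higher and 0.00534% lower. Of the 6 genes that met the rule without replicate 0 of dry ST, 4 were called higher at 75% RWC and 3 at 55% RWC.

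**Figure D5:**
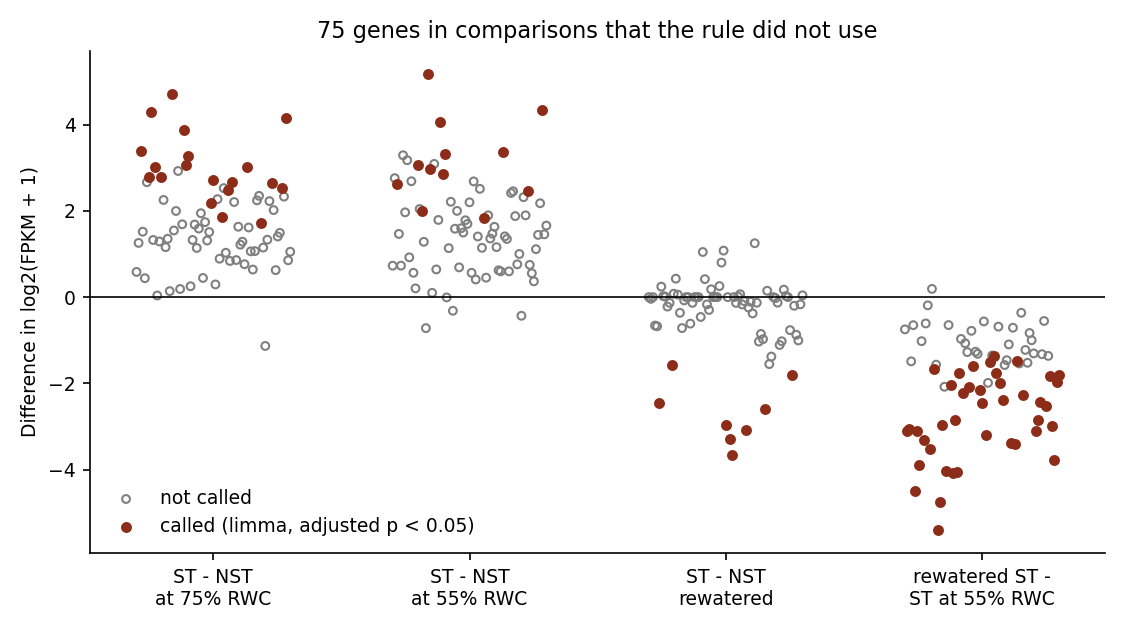
Difference in log2(FPKM + 1) of each of the 75 tested genes in 4 comparisons of groups that the rule did not use, with filled points for limma's adjusted p under 0.05. Most points lie above 0 for ST against NST at 75% and 55% RWC, around 0 after rehydration, and below 0 for rehydrated ST against ST at 55% RWC.

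In NST at 35% against 75% RWC 0 of the genes were higher and 2 lower, where 11.1% of all entries were higher and 11.7% lower, and the median difference was -0.14. Of the 76 genes 37 were under 1 FPKM in all 3 NST libraries at 75% RWC and 51 in those at 35% RWC, and the rule held 2 other NST groups within 4-fold of each other, so nothing is read from the share. Xvis03_204498 stood at 783.67, 161.31 and 15.36 FPKM in NST at 75% RWC and at 22.82, 3.17 and 1.62 FPKM at 35% RWC, a log2 difference of -4.32 ± 1.18 (SE; limma, adjusted p = 0.00817). Its libraries overlapped, and without replicate 0 of NST at 75% RWC the adjusted p was 0.121. It was also high in PST at 75% RWC, at 880.13, 169.60 and 44.67 FPKM, and in ST at 75% RWC, at 320.46, 107.66 and 78.65 FPKM, so the 3 tissues overlapped at that stage. The other gene was Xvis03_209031, named after its values were seen, with a log2 difference of -1.64. The count was 0 without replicate 0 of NST at 75% RWC and 1 without replicate 1 of it or without any 1 of the NST libraries at 35% RWC, and 0 with the compared groups alone in the fit.

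By 48 h after rehydration the transcripts were low in ST again. Of the 76 genes 51 were under 1 FPKM in all 3 rehydrated ST libraries, as 46 were in PST and 40 in NST, and 19 were listed at 0 in all 3. The median level was 0.26, 0.00 and 0.065 FPKM. Of the 75 tested genes 41 were lower in rehydrated ST than in ST at 55% RWC and 0 were higher, where 8.79% of all entries were lower and 8.8% higher. The median difference was -1.76 on the log2 scale, from -5.40 to 0.19, against -0.05 over all entries, and the ST libraries at 55% RWC all lay above the rehydrated ones in 57 genes, as in 17.7% of all entries. Xvis03_208400 had the smallest p and was listed at 0 in all 3 rehydrated ST libraries after 2.88, 42.26 and 28.11 FPKM at 55% RWC (limma, adjusted p = 0.000159). Xvis03_205508 stood at 2.98, 3.54 and 1.48 FPKM in rehydrated ST, a log2 difference of -4.75 ± 0.95 (SE; limma, adjusted p = 0.000859). Xvis03_204498 stood at 2.85, 0.00 and 0.41 FPKM, a log2 difference of -5.40 ± 1.18 (SE; limma, adjusted p = 0.00183). The count was 15 without replicate 1 and 25 without replicate 2 of ST at 55% RWC, where 13.7% and 8.02% of all entries were called. It was 24 without replicate 1 or 2 of rehydrated ST, with 10.3% and 14.2% of all entries called. With the compared groups alone in the fit it was 11, with 3.64% of all entries called.

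A few of the genes kept a level after rehydration. Xvis03_204007 had the highest mean in rehydrated ST, with 88.26, 26.48 and 35.52 FPKM, and it stood at 44.46, 45.06 and 16.58 FPKM in rehydrated NST and at 44.49, 21.84 and 96.22 FPKM in rehydrated PST. The 3 tissues overlapped. Xvis03_220452 had the highest mean in rehydrated NST and PST, with 57.20, 69.53 and 49.97 FPKM in NST, 55.07, 52.79 and 74.21 FPKM in PST and 18.64, 27.72 and 13.71 FPKM in ST. Its ST libraries lay below those of both other tissues, but neither difference was called (limma, adjusted p = 0.0533 against NST and 0.0886 against PST).

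Against rehydrated NST, limma found 0 of the 75 genes higher in rehydrated ST and 8 lower, with 10 at an unadjusted p under 0.05, where 22.9% of all entries were higher and 30.7% lower. The median difference was -0.11, from -3.65 to 1.25, against -0.13 over all entries. With 51 of the 76 genes under 1 FPKM in all 3 libraries of rehydrated ST and 40 in those of rehydrated NST, many could hardly be called on this scale, and nothing is read from the share against all entries. With the compared groups alone in the fit 13 were called, where 51.5% of all entries were. Xvis03_213055 stood at 0.79, 0.16 and 0.28 FPKM in rehydrated ST and at 11.15, 12.64 and 6.45 FPKM in rehydrated NST, a log2 difference of -2.95 ± 0.62 (SE; limma, adjusted p = 0.000114). It stood at 4.85, 4.70 and 2.53 FPKM in rehydrated PST, between the others and overlapping neither. Xvis03_213408 stood at 0.06, 0.00 and 0.00 FPKM in rehydrated ST and at 10.33, 10.74 and 6.51 FPKM in rehydrated NST, with limma's adjusted p = 0.000387.

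PST was tested after rehydration only, where 46 of the 76 genes were under 1 FPKM in all 3 of its libraries, so few could be called. In ST against PST after rehydration 0 genes were higher and 2 lower, 4 had an unadjusted p under 0.05, the median difference was -0.06, and 10.9% of all entries were higher and 12.1% lower. The 2 lower genes were Xvis03_213055, with a log2 difference of -1.82 (limma, adjusted p = 0.0289), and Xvis03_213521, named after its values were seen, with -2.37 (limma, adjusted p = 0.0295). The count was 0 with the compared groups alone in the fit, 0 without replicate 0 or 1 of PST or replicate 2 of ST, 1 without replicate 0 or 1 of ST, and 4 lower with the replicate number as a block, where 23.1% of all entries were lower and the same-number correlations were at least 0.384. In PST against NST after rehydration 2 genes were higher and 5 lower, where 13% of all entries were higher and 18.2% lower, with a median difference of 0.00. Xvis03_212878 was higher, with 8.06, 23.28 and 29.10 FPKM in PST and 1.79, 1.79 and 3.33 FPKM in NST, a log2 difference of 2.54 ± 0.77 (SE; limma, adjusted p = 0.0109, and 0.0703 without replicate 2 of PST). Xvis03_219781 was lower, with 0.25, 0.27 and 0.00 FPKM in PST and 13.79, 10.17 and 1.13 FPKM in NST, a log2 difference of -2.60 ± 0.60 (SE; limma, adjusted p = 0.000948). The count in PST against NST was 4 without replicate 0 or 1 of NST, where 22.9% and 22.8% of all entries were called. It was 3 without replicate 2 of PST, where 19.4% of all entries were called.

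The difference of ST from NST at 55% RWC was also set against that after rehydration. The test of the difference between these 2 differences shares the libraries of the comparisons above. In it ST minus NST was lower after rehydration in 28 of the 75 genes and higher in 0, where 20.4% of all entries were lower and 14.9% higher. The median was -1.77 on the log2 scale, from -5.97 to 1.05, against -0.17 over all entries. Xvis03_213055 had the smallest p, with a value of -5.15 ± 0.87 (SE; limma, adjusted p = 1.7e-05). It stood at 2.65, 19.13 and 5.01 FPKM in ST and 0.73, 1.07 and 0.28 FPKM in NST at 55% RWC, where ST against NST was not called (limma, adjusted p = 0.0693). The count was 16 without replicate 1 of ST at 55% RWC, where 33.5% of all entries were called.

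The ID numbers of some of the 76 genes lie close together. In 7 pairs, holding 14 genes, the numbers differ by at most 10, which is 18.4% of the 76 genes, where 5.42% of the other IDs have 1 of the 76 within 10. In 2 of the pairs the numbers are adjacent, Xvis03_201701 with Xvis03_201702 and Xvis03_213521 with Xvis03_213522. Xvis03_208400 and Xvis03_208404 stand 4 apart, and both had a high replicate 0 in dry ST, a level in ST at 75% and 55% RWC and a listed 0 in all 3 libraries of rehydrated ST. Whether ID numbers follow the order of genes in the genome is not given in the sources used here, and whether genes of a pair share reads was not tested.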

How the data were processed

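The authors deposited 1 table of FPKM values with 21815 entries and 51 columns of libraries. The submitters' processing notes name Bowtie2, TopHat and Cuffdiff. Their versions and settings, and how FPKM was scaled between libraries, were not stated in these sources. FPKM divides by transcript length and a library total, and without counts low values carry an unknown counting error. The choice used the 20783 IDs occurring once (499 IDs repeat). With limma 3.58.1 (R 4.3.3), group means were fitted to log2(FPKM + 1) over 51 libraries with a variance trend, for 18717 entries at 1 FPKM or more in at least 3 libraries (3098 were left out), and p-values were two-sided and Benjamini-Hochberg adjusted over all of them. The pseudocount understates changes of low genes.

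Named genes were the 8 with the highest mean and the 5 with the highest lowest library in dry ST, the 5 with the highest ratio, the smallest p in each direction of a comparison, the highest in each rehydrated tissue and 2 on each side of the limit; others serve single points. The members, the lists and this rule were chosen with earlier results of these data known. Replicate numbers come from the column names. They were not in the main fit, so its counts, SE and p-values ignore any pairing, and the number as a block was an alternative. The numbers were taken to pair libraries where all 3 same-number correlations of deviations from group means exceeded 0.1. This was so for ST with NST at 75% and 55% RWC and for rehydrated ST with PST.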

Additional observations from a re-analysis of the deposited data

Results flagged for a closer look

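For 11 of the named genes the ST minus NST difference after rehydration differed from that at 55% RWC in a test of the difference itself (limma, adjusted p under 0.05). Values are on the log2 scale, negative where ST minus NST was lower after rehydration. A negative value need not be a lost ST excess. After rehydration ST was called below NST for Xvis03_213408 (-3.29), Xvis03_213055 (-2.95), Xvis03_219781 (-2.58) and Xvis03_222903 (-1.81). The difference between differences was -5.97 for Xvis03_213408, -5.34 for Xvis03_224540, -5.26 for Xvis03_205508 and -5.15 for Xvis03_213055. It was -4.05 for Xvis03_208400 and -4.01 for Xvis03_220452. It was -3.18 for Xvis03_219781, -2.97 for Xvis03_206888, -2.92 for Xvis03_222903 and -2.85 for Xvis03_208404, and -1.64 for Xvis03_222916. Without replicate 1 of ST at 55% RWC the adjusted p was 0.0527 for Xvis03_208404 and 0.182 for Xvis03_222916. For Xvis03_222916 it was also 0.0842 after quantile normalization, 0.0511 without replicate 1 and 0.052 without replicate 2 of NST at 55% RWC, and 0.0506 without replicate 1 of rehydrated ST. The named genes were chosen in part on these comparisons.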

How the results depend on the processing

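The number of genes chosen was 11 with the median of the 3 dry ST libraries, 241 with a 4-fold and 11 with a 16-fold limit, and 7 to 118 leaving out 1 dry ST library. Leaving out 1 library of the compared groups, the genes called numbered 6 to 9 for ST against NST, 0 to 2 for ST against PST and 3 to 6 for PST against NST after rehydration. They numbered 1 to 29 for ST against NST at 75% and 0 to 18 at 55% RWC, 0 to 0 for ST at 55% against 75% RWC and 0 to 3 for NST at 35% against 75% RWC. They numbered 15 to 45 for rehydrated ST against ST at 55% RWC and 16 to 35 for the difference between differences. Over all entries the share called was 47.7% to 51%, 9.47% to 31.2% and 19.4% to 31% between rehydrated tissues, in the order above. It was 0.0588% to 7.73% for ST against NST at 75% and 0.0321% to 4.71% at 55% RWC. It was 0.00534% for ST at 55% against 75% RWC and 7.59% to 29.6% for NST at 35% against 75% RWC. It was 8.02% to 17.5% for rehydrated ST against ST at 55% RWC and 30.6% to 34.9% for the difference between differences. When the fit held the compared groups alone, 13 were called for rehydrated ST against NST (51.5% of all entries) and 0 for ST against PST (0%). For ST against NST 0 were called at 75% (4 over all entries) and 0 at 55% RWC (0 over all entries). For NST at 35% against 75% RWC 0 were called (0% of all entries), and 11 for rehydrated ST against ST at 55% RWC (3.64%). These fits have fewer libraries to estimate the spread from. With the replicate number as a block, 15 were called for rehydrated ST against NST (67.6% of all entries) and 4 for ST against PST (44.5%). In that fit 50 were called for ST against NST at 75% (26.2% of all entries) and 49 at 55% RWC (19.8%). For the difference between differences 48 were called (54.9% of all entries). In rehydrated ST against NST and the difference between differences the numbers did not pair all groups. After quantile normalization 1 was called for NST at 35% against 75% RWC, and the all-entry median moved by 0.19 for rehydrated ST against NST, by 0.11 against PST, by 0.10 against ST at 55% RWC and by 0.24 for the difference between differences. The causes of these changes were not tested. Of 471 values of named genes with a call, under another pseudocount, quantile normalization, the block or a left-out library, 408 kept their call, 63 lost it (59 leaving out a library) and 0 changed direction; the fits of the compared groups alone are not in this tally. Low genes are limited by depth, which is unknown.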
